A study of Homo sapiens with 15 samples.

Results

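The 10 genes described here encode enzymes that make serine and glycine, pass their carbon to folate, or use serine to build cysteine. They are *PHGDH*, *PSAT1*, *PSPH*, *SHMT1*, *SHMT2*, *MTHFD2*, *MTHFD1L*, *ALDH1L2*, *CBS* and *CTH*. They were taken by symbol from a deposited table of 58219 genes, and all 10 were among the 17599 genes that passed the filter on low counts. The symbols were matched to the versioned Ensembl identifiers of the table, and each matched 1 row. The study's own pathway analysis of these libraries had named glycine and serine metabolism, so the direction of the set at the high concentration is not independent evidence.

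RNA was sequenced from BEAS-2B cells, a line of human bronchial epithelial cells immortalized with a viral oncogene and grown without serum. The treatment was PM2.5, the fine particulate matter of air, collected on filters in Beijing and extracted from them by sonication in water. The 15 libraries form 5 groups of 3 experiments each. In the 24-h protocol cells received vehicle control, 1 µg/cm2 or 30 µg/cm2 of PM2.5 once. In the repeated protocol they received vehicle control or 1 µg/cm2 each day, with 7 days in the sample labels and 6 exposures with collection on day 7 in the methods. Cells of the repeated protocol were plated at a lower density, so protocol, density and experiment cannot be told apart between the controls. The cells are one established line, so the experiments repeat the treatment and not the donor. The number in the label of a library was taken as its experimental batch, called experiment here. Experiments of one protocol were treated as separate from those of the other, which the paper does not state. Counted reads per library numbered 21460981 to 34724765. All 7 epithelial markers examined were expressed, and the 6 markers of endothelium and leukocytes had between 0 and 8 counts in every library. Fibroblast markers were detected too. *COL1A1* had 599 to 1370 counts per library, *COL1A2* 309 to 857, *DCN* 97 to 223 and *PDGFRA* 13 to 23.

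Serine is made from a glycolytic intermediate in 3 steps, by PHGDH, PSAT1 and PSPH. Serine hydroxymethyltransferase then moves a carbon from serine to tetrahydrofolate and leaves glycine, in the cytosol as SHMT1 and in mitochondria as SHMT2. In mitochondria, MTHFD2 and MTHFD1L carry that carbon on to formate, which leaves for the cytosol to serve purine and methyl group synthesis, and ALDH1L2 instead burns it to carbon dioxide while making NADPH. CBS joins serine to homocysteine and CTH splits the product to give cysteine, a building block of glutathione. Several of these genes are textbook targets of ATF4, a transcription factor of the amino acid and stress response, which binds with C/EBP proteins at composite elements.

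Promoter sequence from RefSeq (GRCh38.p14) was available for 7 of the 10 genes, as windows that begin 250 bases before an annotated start. 3 sequences are shown. They are the bases before the start of *PSAT1*, the member with the highest level per length, those of *SHMT1*, the member that fell at 30 µg/cm2, and a stretch of 30 bases of *MTHFD1L* that holds the composite element. Each is written 5′ to 3′ on the strand of the gene, and capitals mark a match to the composite element or to the antioxidant element core.
PSAT1, chr9:78296875-78297124, plus strand, the 250 bases before its start: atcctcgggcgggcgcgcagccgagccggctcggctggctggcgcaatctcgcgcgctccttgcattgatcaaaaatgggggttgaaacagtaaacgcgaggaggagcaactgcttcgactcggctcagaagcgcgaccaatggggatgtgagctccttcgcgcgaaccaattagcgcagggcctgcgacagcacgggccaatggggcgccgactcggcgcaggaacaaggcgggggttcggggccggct
SHMT1, chr17:18363564-18363800, minus strand, 237 bases upstream of its exons: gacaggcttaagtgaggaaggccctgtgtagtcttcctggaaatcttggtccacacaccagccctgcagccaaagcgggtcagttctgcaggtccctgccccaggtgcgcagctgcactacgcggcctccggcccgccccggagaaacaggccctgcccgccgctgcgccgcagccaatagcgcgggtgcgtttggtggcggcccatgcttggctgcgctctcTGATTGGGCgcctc
MTHFD1L, chr6:150866346-150866375, plus strand, 30 bases around its match: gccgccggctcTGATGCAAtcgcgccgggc
The composite element of ATF4 and C/EBP was searched as TGATGNAA on both strands, and in the 250 bases before the start it was found in 1 of the 7 members, *MTHFD1L*, where it begins 90 or 129 bases before 2 of the annotated starts and overlaps the first exon of another transcript. Counted in the same way over all windows of a gene, it was found in 3.89% of 27305 genes, and in 3.14% of the 35116 single windows. The core of the antioxidant response element bound by NRF2, TGANNNNGC, was found in 5 of the 7 members (*CBS*, *CTH*, *MTHFD1L*, *PHGDH* and *SHMT1*), and in 40.3% of genes and 35.2% of single windows. The core bound by the aryl hydrocarbon receptor, GCGTG, was found in 3 of the 7 (*CBS*, *MTHFD1L* and *MTHFD2*), and in 36.2% of genes and 32.2% of single windows. These are matches of letters in a fixed window, and no binding was measured.

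In untreated cells *PSAT1*, *SHMT2*, *PHGDH* and *MTHFD2* were the most abundant of the set. Levels were expressed as TMM-scaled CPM, the reads of a gene relative to the library total, and between genes as CPM per kilobase of exon. In the 24-h controls *PSAT1* stood first with a mean of 109 CPM per kilobase, followed by *SHMT2* at 67.7, *PHGDH* at 61.3 and *MTHFD2* at 47.9. These 4 ranges overlapped from one neighbour to the next. *PSPH* at 16.0 and *MTHFD1L* at 10.6 CPM per kilobase followed without overlap with their neighbours, and *SHMT1* at 5.19, *CTH* at 4.23 and *ALDH1L2* at 3.81 overlapped in turn. *CBS* was lowest, at 0.291 CPM per kilobase. Of the 50-base stretches in its exons, 94.0% also occur in a second copy of the gene. Its level per kilobase may therefore be understated, and its rank in the set is uncertain in every group. At 30 µg/cm2 the order kept *PSAT1* first at 262 and *CBS* last at 0.566 CPM per kilobase, *SHMT1* at 3.27 came below *ALDH1L2* at 16.1 and *CTH* at 12.4, and these ranges no longer overlapped that of *SHMT1*.

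**Figure D1:**
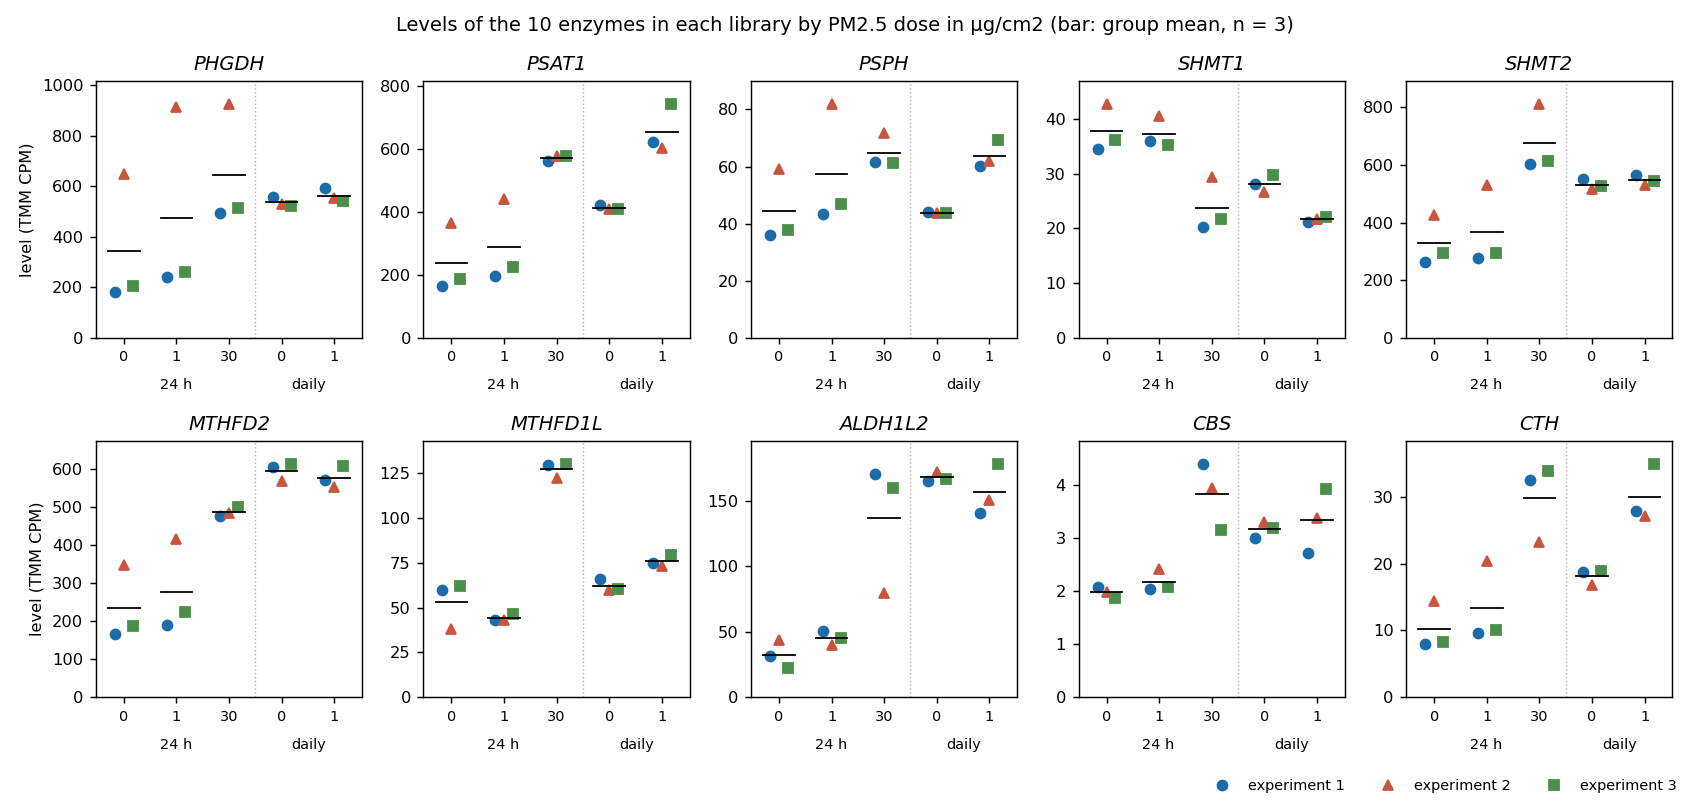
Level of each enzyme (vertical axis, TMM-scaled CPM, from 0) in the 15 libraries by PM2.5 dose in µg/cm2 (horizontal axis), for the 24-h protocol on the left and the daily protocol on the right of each panel. Points are libraries, shapes are experiment numbers within a protocol, and bars are means of 3. The triangle of experiment 2 lies above the other points of the 24-h controls for *PHGDH* (648 CPM against 182 and 203), and at 30 µg/cm2 the 3 points of *PSAT1* lie together between 563 and 579 CPM.

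The first comparison asked how the enzymes respond to a single high concentration. After 24 h with 30 µg/cm2, 8 of the 10 members passed the test, 7 higher and 1 lower, where the share of all tested genes called was 8.07%, made up of 3.82% higher and 4.24% lower. The rises were in *ALDH1L2*, *CTH*, *PSAT1*, *MTHFD1L*, *MTHFD2*, *SHMT2* and *CBS*, between 1.94-fold and 4.22-fold, and the fall was in *SHMT1*. *PHGDH* and *PSPH* did not pass. A call required an adjusted p-value (edgeR, Benjamini-Hochberg over all tested genes) under 0.05 together with a change of 0.6 or more on the log2 scale in either direction. The median log2 fold-change of the 10 members was 1.05 and that of all genes was 0.03. In 9 of the 10 members the 3 treated and the 3 control libraries did not overlap, against 22.8% of all tested genes. In bulk RNA, a change in the RNA of each cell and a change in the mixture of cells cannot be told apart.

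Of the serine synthesis enzymes, *PSAT1* (chr9:78297143-78330093), the aminotransferase of the second step, measured 164, 365 and 186 CPM in the controls of experiments 1, 2 and 3 and 563, 579 and 577 CPM at 30 µg/cm2. The treated libraries were close to each other while the control of experiment 2 stood well above the other two. *PSAT1* rose 2.41-fold, with a log2 fold-change of 1.27 ± 0.30 (SE, n = 3 against 3, edgeR adjusted p = 0.0167). *PHGDH* (chr1:119659798-119744215), the dehydrogenase of the first step, measured 182, 648 and 203 CPM in the controls and 495, 924 and 515 CPM after treatment. The groups overlapped, because the control of experiment 2 exceeded the treated libraries of experiments 1 and 3. Its log2 fold-change was 0.90 ± 0.52 (SE, edgeR adjusted p = 0.321), with a 95% confidence interval of -0.20 to 2.01. *PSPH* (chr7:56011051-56051604), the phosphatase of the last step, measured 36.0, 59.0 and 37.8 CPM in the controls and 61.6, 71.6 and 61.3 CPM after treatment, without overlap, and its log2 fold-change of 0.55 ± 0.22 (SE, edgeR adjusted p = 0.149) did not pass. A pseudogene of *PSPH*, *PSPHP1*, held a mean of 159 counts per library, and reads could be shared between them.

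The 2 serine hydroxymethyltransferases moved in opposite directions. *SHMT2* (chr12:57229327-57234935), the mitochondrial enzyme, measured 263, 428 and 292 CPM in the controls and 602, 811 and 615 CPM at 30 µg/cm2. All treated libraries lay above all controls, and *SHMT2* rose 2.06-fold, with a log2 fold-change of 1.04 ± 0.24 (SE, edgeR adjusted p = 0.0123). *SHMT1* (chr17:18327860-18363563), the cytosolic enzyme, measured 34.6, 42.7 and 36.2 CPM in the controls and 20.3, 29.3 and 21.7 CPM after treatment. All treated libraries lay below all controls, and *SHMT1* fell by 0.67 on the log2 scale (SE 0.14, edgeR adjusted p = 0.00834). It was the only one of the 10 to fall.

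The other 3 mitochondrial folate enzymes of the set rose as well. *ALDH1L2* (chr12:105019784-105084577), which burns the folate-bound carbon, measured 31.3, 43.4 and 22.6 CPM in the controls and 170.3, 79.4 and 160.1 CPM after treatment. Its increase of 4.22-fold was the largest of the set, with a log2 fold-change of 2.08 ± 0.27 (SE, edgeR adjusted p = 0.000291). *MTHFD1L* (chr6:150865549-151101887), the enzyme that releases formate, measured 59.5, 38.0 and 62.1 CPM in the controls and 129, 122 and 130.1 CPM after treatment. It rose 2.39-fold and had the smallest adjusted p of the set (log2 fold-change 1.26 ± 0.15, SE, edgeR adjusted p = 0.000181). *MTHFD2* (chr2:74198562-74217565), which oxidises the carbon before that step, measured 167, 347 and 186 CPM in the controls and 474, 484 and 498 CPM after treatment, and rose 2.08-fold (log2 fold-change 1.06 ± 0.28, SE, edgeR adjusted p = 0.0283). The exons of *MTHFD2* overlap those of *SLC4A5* on the other strand over 27.2% of their length, and *SLC4A5* held a mean of 24.7 counts per library. The strand setting of the counting was not given, and the effect of this overlap on the level of *MTHFD2* was not tested.

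Both enzymes that carry serine into cysteine rose. *CTH* (chr1:70411218-70439851), which releases cysteine, measured 7.92, 14.4 and 8.33 CPM in the controls and 32.6, 23.3 and 33.8 CPM after treatment, a rise of 2.93-fold (log2 fold-change 1.55 ± 0.29, SE, edgeR adjusted p = 0.00405). The smallest of these rises was that of *CBS* (chr21:43053191-43076943), which makes its substrate. *CBS* measured 2.08, 1.98 and 1.88 CPM in the controls and 4.41, 3.95 and 3.16 CPM after treatment, from 42 to 134 counts per library over all groups, and rose 1.94-fold (log2 fold-change 0.96 ± 0.20, SE, edgeR adjusted p = 0.00664). A second copy of the gene lies at chr21:6444869-6468040, and 94.0% of the 50-base stretches in the exons of *CBS* occur unchanged in it, so a read could rarely be placed. The row of the copy measured 1.60, 1.88 and 1.24 CPM in the controls and 2.76, 3.02 and 2.68 CPM after treatment, with a log2 fold-change of 0.85 (edgeR adjusted p = 0.0318).

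**Figure D2:**
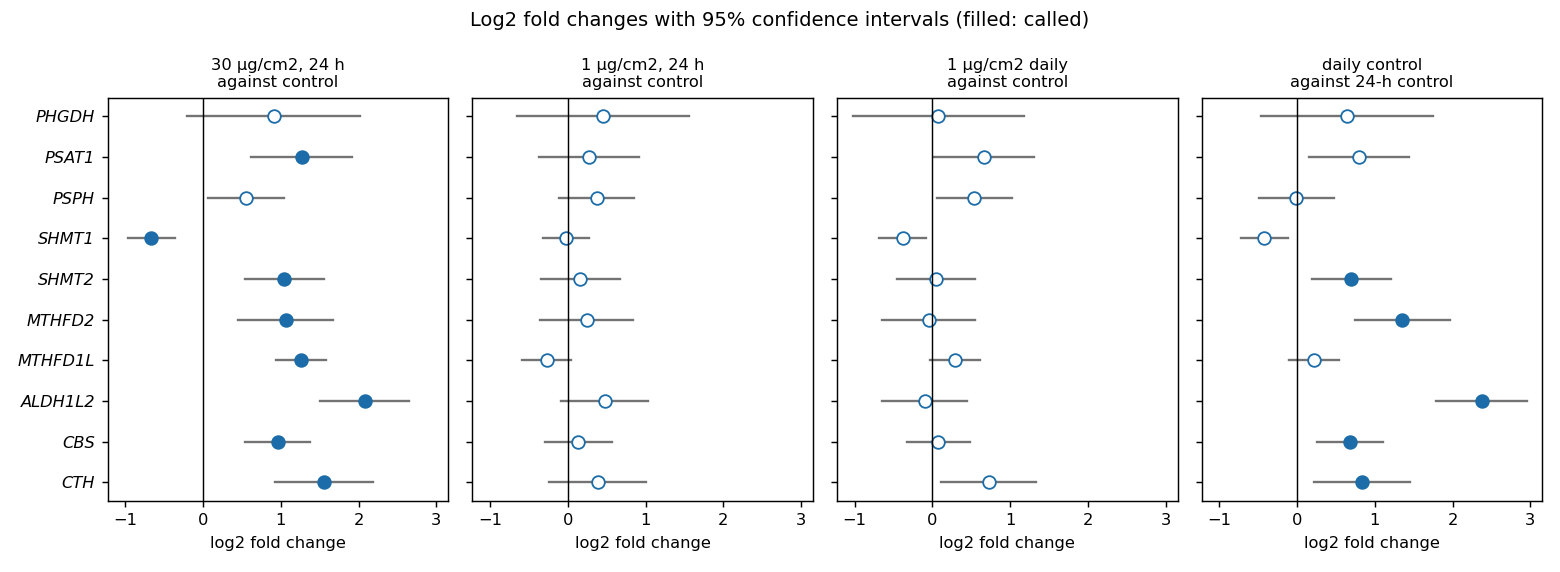
Log2 fold-changes of the 10 enzymes (horizontal axis) in 4 comparisons, as points with 95% confidence intervals from edgeR, where filled points passed the adjusted p and fold thresholds. After 30 µg/cm2 for 24 h the filled points run from -0.67 for *SHMT1* to 2.08 for *ALDH1L2*, and after 1 µg/cm2, once or daily, no point is filled.

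The 24-h experiments did not behave alike, for these genes or over all tested genes. In the controls, experiment 2 lay above the mean of experiments 1 and 3 by 1.75 on the log2 scale for *PHGDH*, 1.07 for *PSAT1*, 0.98 for *MTHFD2*, 0.82 for *CTH*, 0.71 for *ALDH1L2*, 0.68 for *PSPH* and 0.63 for *SHMT2*. *MTHFD1L* was lower in it, by -0.67. Over all tested genes, 6.80% were higher and 7.51% lower by 1 or more in that control, 14.3% in all. The share was 23.1% in the low-concentration library of experiment 2 and 18.2% in its high-concentration library. The difference of experiment 2 was therefore not limited to these enzymes. In its control, upward shifts at least as large as that of *PHGDH* were found in 1.3% of genes, with downward shifts not counted. The smaller shifts were more common, with 15.2% of genes at or above the value of *SHMT2*, 13.6% at *PSPH* and 12.7% at *ALDH1L2*. The response within experiment 2 was smaller for the same genes. The log2 ratio of treated to control cells was 1.78, 0.66 and 1.63 in experiments 1, 2 and 3 for *PSAT1*. It was 1.44, 0.51 and 1.34 for *PHGDH*, 2.03, 0.69 and 2.01 for *CTH*, 1.51, 0.48 and 1.42 for *MTHFD2*, and 2.44, 0.87 and 2.82 for *ALDH1L2*. *MTHFD1L* went the other way, with 1.12, 1.68 and 1.07. For *SHMT2* (1.20, 0.92 and 1.07), *CBS* (1.06, 0.97 and 0.73) and *SHMT1* (-0.77, -0.54 and -0.73) the experiments lay closer. All 10 genes kept one direction in the 3 experiments, and with 1 pair of libraries per experiment the difference between experiments has no test. Whether the smaller response in experiment 2 was particular to these enzymes was not tested.

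**Figure D3:**
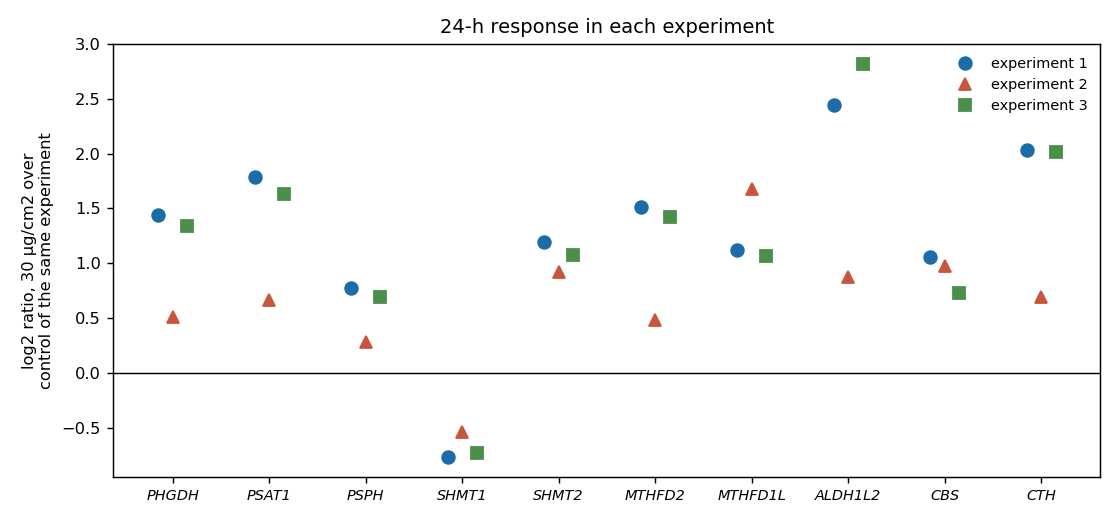
Log2 ratio of the level at 30 µg/cm2 to the control of the same 24-h experiment (vertical axis) for each enzyme, with a symbol per experiment and no error bar, since each is 1 pair of libraries. The triangle of experiment 2 lies below the other symbols for *PHGDH*, *PSAT1*, *PSPH*, *SHMT2*, *MTHFD2*, *ALDH1L2* and *CTH*, and above them for *MTHFD1L* at 1.68 and for *SHMT1*, where it is nearest to 0.

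With the experiment as a block, 9 members passed at 30 µg/cm2 against 15.2% of all genes, the addition being *PHGDH* with a blocked log2 fold-change of 1.12 (edgeR adjusted p = 0.000312). Without the libraries of experiment 2, all 10 passed against 19.1% of all genes, with *PHGDH* at 1.37 (edgeR adjusted p = 5.57e-09) and *PSPH* at 0.72 (edgeR adjusted p = 7.07e-06). Fitting only the 6 libraries compared left 3 of the 10 called, *ALDH1L2*, *MTHFD1L* and *CTH*, against 2.23% of all genes. Without the control of experiment 1 or 3, or the treated library of experiment 1 or 3, 5 of the 10 were called, against 4.42% to 6.65% of all genes in those fits.

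The cells also changed in other respects at 30 µg/cm2. Of 7 epithelial markers, 4 fell and none rose: *KRT5*, a basal cell keratin, by 2.46 on the log2 scale, *KRT19* by 1.48, *KRT8* by 0.85 and *CDH1*, the epithelial cadherin, by 0.70. The summed level of the 7 was 1916 to 2449 CPM in the controls and 842 to 1156 CPM after treatment. None of 4 fibroblast markers passed, none had an unadjusted p under 0.05 and none was called by DESeq2, and their sum was 55.3 to 69.0 CPM in the controls and 43.7 to 74.8 CPM after treatment. The part of these markers in the changes of the enzymes was not tested.

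Genes around the set were examined from lists. Of 16 genes listed for ATF4 and the amino acid response, with *ATF4* itself among them, 4 rose at 30 µg/cm2 and none fell. They were *TRIB3*, a pseudokinase of the stress response (log2 fold-change 2.61), *ASNS*, asparagine synthetase (1.999), *PYCR1*, of proline synthesis (1.09), and *GPT2*, mitochondrial alanine transaminase (0.90). With the block, 11 of the 16 rose, where 15.2% of all genes were called in either direction. DESeq2 called 8 of the 16, against 10.4% of all genes. *ASNS* measured 88.1, 435 and 103 CPM in the controls and 744, 953 and 805 CPM after treatment, so that its control of experiment 2 was high as for *PHGDH*. *TRIB3* ranged from 110.3 to 203 CPM in the controls and from 773 to 977 CPM after treatment. Of 10 targets of NRF2, the factor of the oxidant response, 8 rose and none fell, among them *HMOX1*, heme oxygenase (3.25), *SLC7A11*, the cystine importer (2.93), *SRXN1*, which repairs oxidised peroxiredoxins (2.38), and *TXNRD1*, thioredoxin reductase (2.37).

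Among neighbours in metabolism, the pattern was mixed. Of 16 other enzymes that make, use or break down serine and glycine, 3 rose and 3 fell. *DMGDH*, which makes sarcosine in mitochondria, rose by 2.72 on the log2 scale from a mean of 0.583 CPM, *SDSL*, related to serine dehydratase, by 1.64 and *ALAS1*, which uses glycine for heme, by 1.06. *MAOA* fell by 1.49, *PGAM1*, a glycolytic mutase, by 0.84, and 1 further gene fell. Of 12 genes of cysteine use and glutathione, 3 rose and none fell, and they were *SLC7A11* (2.93), *GCLC* (2.33) and *GCLM* (1.44), the last pair being the subunits of the enzyme that starts glutathione synthesis. All 3 also stand in the NRF2 list. Of 10 transporters of serine and glycine, *SLC1A4* rose by 1.18, while *SLC38A4* fell by 3.25 and *SFXN3*, a mitochondrial serine carrier, fell by 1.25. Of 10 genes of the methionine cycle, *BHMT* and *BHMT2* were called higher, but neither had over 3 counts in a control library, and they had 3 to 11 counts after treatment. None of 13 other genes of the folate cycle passed in edgeR or DESeq2, with 5 at an unadjusted p under 0.05, and none of 12 genes of purine synthesis passed in either tool, with 2 at an unadjusted p under 0.05.

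**Figure D4:**
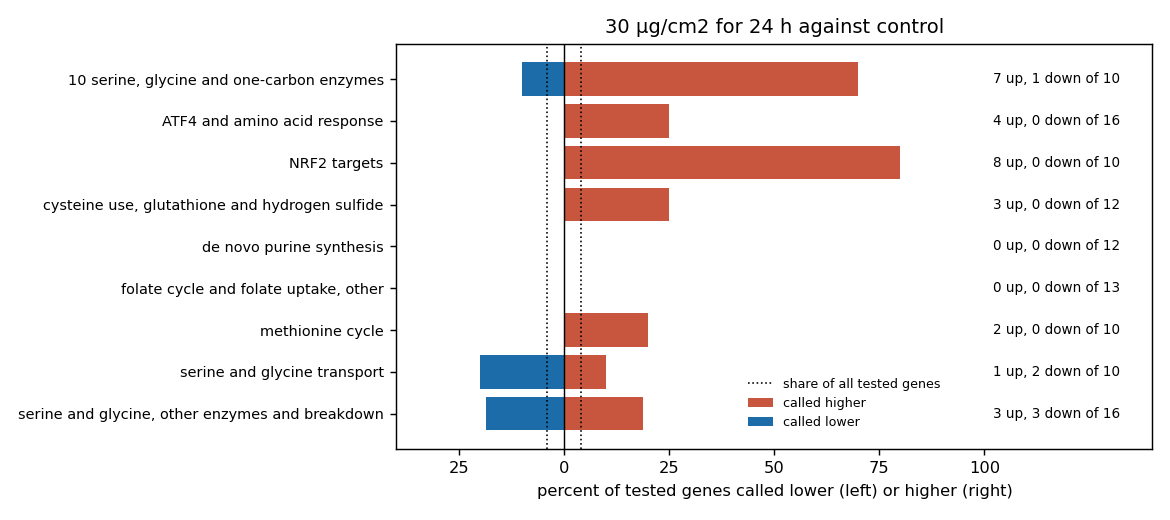
Share of tested genes called higher (bars to the right) or lower (bars to the left) at 30 µg/cm2 for 24 h, in percent, for the 10 enzymes and 8 lists of related genes, with dotted lines at the shares over all tested genes (3.82% and 4.24%). The 10 enzymes (7 up, 1 down) and the NRF2 targets (8 of 10 up) have the longest bars, and the folate and purine lists have none.

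At the low concentration for 24 h, the enzymes were compared with the same 3 controls. None of the 10 passed in edgeR, none had an unadjusted p under 0.05 and none was called by DESeq2, where 0.0625% of all genes were called. The log2 fold-changes ran from -0.27 for *MTHFD1L* to 0.48 for *ALDH1L2*, with a median of 0.26 against 0.01 for all genes. The 95% confidence interval was -0.59 to 0.05 for *MTHFD1L* and -0.08 to 1.03 for *ALDH1L2*. *ALDH1L2* measured 50.3, 39.9 and 44.96 CPM, all above the 31.3 and 22.6 CPM of the controls of experiments 1 and 3, and the value of experiment 2 lay below the 43.4 CPM of its own control. Without the libraries of experiment 2 it was the 1 member called (log2 fold-change 0.83 ± 0.13, SE, edgeR adjusted p = 0.00116), against 2.11% of all genes. *MTHFD1L* measured 42.9, 42.9 and 46.3 CPM, below both of those controls and above the 38.0 CPM of experiment 2. *PHGDH* at 242, 913 and 262 CPM and *PSAT1* at 197, 442 and 226 CPM were each above the control of their own experiment, and the groups overlapped.

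The concentrations were also compared with each other. Against 1 µg/cm2, 30 µg/cm2 gave 6 called members, 5 higher and 1 lower, where 7.84% of genes were called, 3.62% higher and 4.22% lower. *ALDH1L2* was 3.03-fold higher, *MTHFD1L* 2.89-fold, *CTH* 2.25-fold, *SHMT2* 1.84-fold and *CBS* 1.77-fold, and *SHMT1* was lower by -0.64 on the log2 scale. *PSAT1* (log2 difference 0.99, edgeR adjusted p = 0.053) and *MTHFD2* (0.82, edgeR adjusted p = 0.0834) did not overlap between the groups but did not pass. With the block 9 members passed against 15.6% of genes, and without experiment 2 9 passed against 17.3%. DESeq2 called 8, against 10.1%. Fitting only the 6 libraries compared left 1 call, *MTHFD1L*, against 0.918% of genes, and without a library of experiment 1 or 3 of either group 2 or 3 were called, against 3.94% to 5.85%.

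Daily exposure to 1 µg/cm2 was compared with its own control. None of the 10 passed in edgeR or DESeq2, where 0.227% of genes were called, and 4 had an unadjusted p under 0.05. These were *CTH*, *PSAT1*, *PSPH* and *SHMT1*. The control libraries measured 422, 409 and 409 CPM for *PSAT1* and the treated ones 621, 602 and 742 CPM, with a log2 fold-change of 0.67 ± 0.30 (SE, edgeR adjusted p = 0.402). *CTH* measured 18.7, 16.8 and 18.9 CPM in the controls and 27.8, 27.1 and 34.9 CPM after exposure (log2 fold-change 0.72 ± 0.29, SE, edgeR adjusted p = 0.329). *PSPH* went from 44.1, 43.7 and 43.8 CPM to 60.2, 61.8 and 69.2 CPM (log2 fold-change 0.54, edgeR adjusted p = 0.360). *SHMT1* went from 28.0, 26.6 and 29.8 CPM to 21.1, 21.7 and 22.1 CPM (log2 fold-change -0.38, edgeR adjusted p = 0.290). In these 4 genes and *MTHFD1L* (65.8, 59.7 and 60.1 against 74.9, 73.4 and 79.0 CPM) the treated and control libraries did not overlap. That is 5 of 10, where 42.9% of all tested genes did not overlap.

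The spread behind these tests was shared with the 24-h libraries. With the block 1 member passed, *PSAT1* (log2 fold-change 0.66, edgeR adjusted p = 0.0352), where 4.39% of genes passed. Fitting only the 6 libraries of the daily protocol called *PSAT1* (edgeR adjusted p = 0.000424) and *CTH* (edgeR adjusted p = 0.00103), against 6.23% of genes, and a fit without 24-h experiment 2 called the same pair against 6.03% of genes. The other enzymes lay near their controls. *MTHFD2* measured 605, 567 and 612 CPM in the controls and 569.6, 551 and 606 CPM after exposure, *ALDH1L2* 165, 172 and 166 CPM and 141, 151 and 178 CPM, and *PHGDH* 557, 531 and 519.8 CPM and 594, 555 and 540.3 CPM. *SHMT2* ranged from 515 to 550.1 CPM in the controls and from 529.9 to 565 CPM after exposure, and *CBS* from 3.002 to 3.31 and from 2.72 to 3.93 CPM. Of the surrounding lists, 2 epithelial markers fell, *KRT5* by 0.93 and *TP63* by 0.99 on the log2 scale, and the marker sum was 2416 to 2881 CPM in the controls and 1529 to 1677 CPM after exposure. Their part in the levels of the enzymes was not tested.

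Whether the daily response differed from the single responses was tested directly, as a difference between log2 fold-changes. Against the response to 30 µg/cm2, 2 of the 10 members passed, where 1.82% of genes did. The daily response of *ALDH1L2* was smaller by -2.18 ± 0.37 (SE, edgeR adjusted p = 0.00936) and that of *MTHFD1L* by -0.96 ± 0.21 (SE, edgeR adjusted p = 0.0333). The median difference over the 10 members was -0.86. With the block 6 members passed against 14.6% of genes, the further ones being *PHGDH*, *SHMT2*, *MTHFD2* and *CBS*, and without 24-h experiment 2 8 passed against 21.6%. Without any one library of the daily protocol, or without the treated 24-h library of experiment 1 or 3, 1 passed, against 0.726% to 0.892% of genes. Dose and duration both differ in this comparison and cannot be told apart. Among the listed genes, the daily response was smaller for *HMOX1* (-3.07), *DMGDH* (-2.96), *GCLC* (-2.54), *TXNRD1* (-2.28), *NQO1* (-1.81), *ALAS1* (-1.16) and *BHMT*, which had at most 23 counts, and it lay above the single response for *SLC38A4* (2.998), *KRT5* (1.53) and *PGAM1* (1.08). Against the single response to 1 µg/cm2 no member passed in edgeR or DESeq2, and 1, *MTHFD1L*, had an unadjusted p under 0.05 (difference 0.57 ± 0.21, SE, edgeR adjusted p = 0.601). There, 0% of all genes passed. Without 24-h experiment 2 the difference was called for *MTHFD1L* (0.73, edgeR adjusted p = 0.000407) and *ALDH1L2* (-0.92, edgeR adjusted p = 0.00137), against 9.84% of genes. Without only the 24-h control of experiment 2, 1 member was called, *MTHFD1L* (0.75, edgeR adjusted p = 0.0435), against 0.348% of genes.

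The untreated cells of both protocols were compared as well. In the daily control, 5 members were higher than in the 24-h control and none was called lower, where 21.9% of genes were called in all and 11.1% as higher. *ALDH1L2* was 5.18-fold higher (168 ± 3.95 against 32.4 ± 10.5 CPM, mean ± SD, n = 3), *MTHFD2* 2.55-fold (595 ± 24.0 against 233 ± 99.2 CPM), *CTH* 1.78-fold, *SHMT2* 1.62-fold and *CBS* 1.60-fold. In the daily control *MTHFD2* lay above all libraries of the 24-h protocol, and *ALDH1L2*, at 165 to 172 CPM, lay within or just above the range reached at 30 µg/cm2. *SHMT1* was lower by -0.42 on the log2 scale (edgeR adjusted p = 0.0366), below the fold threshold. The calls for *SHMT2* (edgeR adjusted p = 0.0401) and *CTH* (edgeR adjusted p = 0.0443) lay near the threshold of adjusted p. Those for *SHMT2* (log2 fold-change 0.70) and *CBS* (0.68, edgeR adjusted p = 0.0186) lay near the fold threshold. Leaving out 1 library left 2 to 7 members called, where 15.7% to 24.9% of genes were called. Upper-quartile scaling left 3, against 21.9%. *ALDH1L2* and *MTHFD2* were called in each of those fits.

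Over the 15 libraries, the log2 levels of the members were set beside each other, as a description of libraries that share experiments and treatments. The closest pair was *PSAT1* and *CTH* (Pearson r = 0.98, n = 15), followed by *PSAT1* with *SHMT2* and with *MTHFD2* (both 0.92). *SHMT1* was negatively correlated with all 9 others, from -0.27 with *PHGDH* to -0.84 with *ALDH1L2*. Of the serine synthesis enzymes, *MTHFD1L* correlated at 0.27 with *PHGDH*, 0.32 with *PSPH* and 0.58 with *PSAT1*. Outside the set, the 2 genes most correlated with each member that passed at 30 µg/cm2 were found among genes with a mean of at least 1 CPM. They were *DDIT3*, a stress transcription factor, and *ZNF442* for *MTHFD2* (0.99 and 0.98), *SARS1*, the cytosolic seryl-tRNA synthetase, and *ASNS* for *SHMT2* (0.98 and 0.96), and *MORN4* and *ASNS* for *PSAT1* (0.98 and 0.97). For *CTH* they were *TRIB3* and *MORN4* (0.98 and 0.96), for *ALDH1L2* *NIBAN1*, a stress-induced protein, and *RNF227* (0.98 and 0.97), and for *MTHFD1L* *MAFF*, a small Maf factor, and *PLK3*, a stress kinase (0.97 for both). *CBS* was followed less closely, by *MOCOS* and *RAD51D* (0.92 and 0.90). For *SHMT1* they were *SEPTIN6* and *SLC25A23* (0.98 and 0.97), which fell at 30 µg/cm2 by 0.79 and 0.80 on the log2 scale.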

How the data were processed

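RNA-Seq was carried out in 15 libraries. The authors enriched poly-A RNA, read single ends of 50 bases, aligned them with STAR and counted them per gene with featureCounts. The deposited table holds these raw counts. The submitters' processing notes name hg19 and the methods GRCh38. Of 57437 genes of the table found in GENCODE v44, 57370 overlap their GRCh38 position. The strand setting and the annotation version were not given in the sources used here. The deposited exon lengths gave CPM per kilobase.

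Counts were fitted in R 4.3.3 with edgeR 4.0.16 (quasi-likelihood, earlier mode, TMM, filterByExpr by group, all libraries, one mean per group, SEs from the F statistic). Alternatives used RLE or upper-quartile scaling, other filters, a replicate block, the current and robust modes, DESeq2 1.42.0, the groups compared alone, no 24-h experiment 2, *CBS* summed with its copy, and each library left out. Fits were tested on simulated data. P-values of the main fit rest on the spread of libraries within groups, estimated over all groups and with information shared between genes. Without a block, this spread includes the differences between experiments. Log2 CPM used a prior count of 2.

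Replicate numbers come from the labels and were taken as experimental batches that pair the samples within a protocol. Deviations from group means correlated at 0.20 to 0.72 within a number and at a mean of -0.23 between numbers at 24 h, and at 0.12 to 0.18 and a mean of -0.08 in the daily protocol. The controls of the protocols cannot be blocked.

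The members, lists and alternatives were chosen with earlier results of these data known. Named were all members, at most the 4 most changed called genes of a list at 30 µg/cm2, listed genes called at 1 µg/cm2 or for a difference between responses, and the 2 genes most correlated with each member called at 30 µg/cm2. Of the genes covered by this rule, 1 is left out and not reported here.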

Additional observations from a re-analysis of the deposited data

Results flagged for a closer look

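The response of 2 enzymes to daily 1 µg/cm2 differed from that to a single 30 µg/cm2 by a test of the difference itself. The difference between the log2 fold-changes was -2.18 for *ALDH1L2* (edgeR adjusted p = 0.00936) and -0.96 for *MTHFD1L* (edgeR adjusted p = 0.0333). For *ALDH1L2* the single exposure gave a log2 fold-change of 2.08 and the daily exposure one of -0.10, from a daily control that was 5.18-fold above the 24-h control. For *MTHFD1L* they were 1.26 and 0.29. Dose and duration both differ between these exposures and cannot be told apart, and the count of called members fell in some fits without a library.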

How the results depend on the processing

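Counts of called members were recomputed under each alternative. With only the groups compared in the fit, 3 of the 10 members were called at 30 µg/cm2 against control (2.23% of all genes), 1 at 30 against 1 µg/cm2 (0.918%) and 2 after daily exposure (6.23%). Without 24-h experiment 2, 1 was called at 1 µg/cm2 for 24 h (2.11%), 2 after daily exposure (6.03%), 2 for the daily against the single response to 1 µg/cm2 (9.84%) and 8 for the daily response against that to 30 µg/cm2 (21.6%). The replicate block gave 1 after daily exposure (4.39%) and 6 for the last difference (14.6%), and upper-quartile scaling gave 3 between the controls (21.9%). With one library left out, the counts ranged from 5 to 9 at 30 µg/cm2 (4.42% to 15% of all genes), 2 to 8 between concentrations (3.94% to 15%), 2 to 7 between the controls (15.7% to 24.9%), 0 to 1 for the difference from the single response to 1 µg/cm2 (0% to 0.348%) and 1 to 3 for that from 30 µg/cm2 (0.726% to 8.07%), and stayed at 0 at 1 µg/cm2, once or daily. The cause of these shifts was not tested. Signs were compared for 487 values, each of 1 member in 1 comparison under 1 alternative, and for 675 such values with a library left out. None changed sign, and 435 and 603 kept their side of the threshold. Log2 fold-changes never called in any fit and with a high unadjusted p were not checked, among them that of *ALDH1L2* after daily exposure. The replicate block changed no other call than those given here and in the text. *CBS* held the fewest counts of the members, 42 to 134 per library.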
